A study of Mus musculus with 4 samples.

Results

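The contacts of the start sites of Rai14 and Amacr were followed in tiled Capture-C maps of mouse embryonic stem cells. Tiled Capture-C joins crosslinked and cut chromatin fragments by ligation, enriches the ligation products of a chosen region with oligonucleotides and sequences them, so that the reads joining a pair of sites report how often these sites lay close together. Members were all bin pairs of the captured region on chromosome 15 (chr15:10278401-13196800, mm9, 456 bins of 6.4 kb) that touch 1 of 2 stretches of 3 bins. The Rai14 stretch (3 bins from chr15:10636801 on) holds the start of Rai14 in its middle bin and a domain boundary in its last bin, and the Amacr stretch (chr15:10899201-10918400) holds the start of Amacr in its middle bin. These were 2721 of 104196 bin pairs (2.61%), of which 1365 touch each stretch and 9 join the stretches. In the libraries, 2104 (1A2), 2154 (1F4), 2169 (1B1) and 2221 (1B1 -cohesin) of the 2721 held at least 1 read. The stretches were chosen by their readout, because the boundary beside Rai14 had been seen to deepen when cohesin was degraded. All differences between 1B1 -cohesin and 1B1 are therefore given as a description, and they carry no test.

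The 4 libraries, 1 per group, came from E14 cells grown with leukemia inhibitory factor and inhibitors of MEK and GSK3. All lines descended from a clone with deleted endogenous CTCF sites, expressed TetR-tdTomato and LacI-eGFP, carried TetO and LacO arrays on 1 copy of chromosome 15 and had both copies of Rad21, a subunit of cohesin, fused to HaloTag and FKBP, and each line was 1 clone. Line 1B1 held cassettes of 3 CTCF sites (3xCTCF) in convergent orientation beside the arrays. Line 1A2 was made from 1B1 by removal of these sites and has no promoters at the arrays, and line 1F4 has no 3xCTCF sites but keeps the Pgk1 promoters of the resistance cassettes. The library 1B1 -cohesin came from line 1B1 after 2 h in dTag-13 at 500 nM, which degrades the tagged RAD21. With 1 library in each group there is no replicate error, and every error below is the counting error (1 standard error) of the reads recovered from the balanced signal, which leaves out variation between cultures and preparations. The region held 1225535 to 1558596 reads per library, the Rai14 stretch 15867 to 20485 and the Amacr stretch 11229 to 14405.

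Rai14 encodes an actin-binding protein with ankyrin repeats, and Amacr encodes a racemase that converts branched fatty acids and bile acid intermediates into the form that can be oxidised. Cohesin extrudes loops of chromatin and is arrested at sites bound by CTCF, which gives rise to topologically associating domains and to the boundaries between them. Active promoters lie at many boundaries, and contacts between stretches of like chromatin state, known as compartments, do not need cohesin. Mapped reads of this kind do not report transcription, and the activity of either promoter was not measured here.

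Rai14 (ENSMUSG00000022246, minus strand, chr15:10498734-10644386) is transcribed towards lower coordinates, which are called left below, so its body fills the left side of its start. To the right of the start lies the long noncoding RNA gene 4930556M19Rik (chr15:10644591-10719878, plus strand), whose start is separated from the outermost annotated start of Rai14 by 204 bases. A shorter annotated transcript of Rai14 starts at chr15:10643295, in the same bin. The outermost start is used below. The boundary bin (6.4 kb from chr15:10649601 on) begins 5.21 kb to the right of the Rai14 start and overlaps no protein-coding gene. No protein-coding gene starts between it and C1qtnf3 (chr15:10882087-10909905, plus strand). Amacr (ENSMUSG00000022244, plus strand, chr15:10911511-10926379) starts 267.1 kb to the right of Rai14, and its stretch also holds the end of C1qtnf3, which encodes a secreted protein related to complement C1q.

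The bases at both starts used here are shown as a description, while contacts were measured in bins of 6.4 kb. The first run lies between the starts of Rai14 and 4930556M19Rik (chr15:10644387-10644590, NCBIM37, written on the minus strand) and the second is the 200 bases before the Amacr start (chr15:10911311-10911510, plus strand). Capitals mark GC boxes, GGGCGG or its complement CCGCCC, to which factors of the Sp family can bind.
Rai14: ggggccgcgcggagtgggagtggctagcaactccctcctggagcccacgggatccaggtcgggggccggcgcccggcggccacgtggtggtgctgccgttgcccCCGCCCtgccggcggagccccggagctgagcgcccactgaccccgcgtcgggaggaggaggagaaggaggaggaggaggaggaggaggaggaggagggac
Amacr: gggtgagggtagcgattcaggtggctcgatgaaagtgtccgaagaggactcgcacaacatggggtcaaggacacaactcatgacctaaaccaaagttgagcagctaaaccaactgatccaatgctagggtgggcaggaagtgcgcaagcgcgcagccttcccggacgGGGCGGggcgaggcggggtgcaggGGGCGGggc
The Rai14 run had 75.5% G and C, 19 CpG and 1 GC box, and the Amacr run 61.5%, 13 CpG and 2 GC boxes, while 8 of the 22 protein-coding genes that start in the region (36.4%) had a GC box in the 200 bases before their start. Over the whole stretch, Rai14 stood out in CpG number with 348 against a median of 190 over all 454 stretches of 3 bins, and 13 stretches had more, whereas Amacr had 212 and 159 stretches had more. The motif CCNNNAGGNGGC, which resembles the core of the CTCF motif, was searched on both strands. It had no match in the Rai14 stretch, and 32.4% of all stretches of 3 bins held a match. The Amacr stretch held 2 matches, shown here with their flanks and the match in capitals, the first on the plus strand at chr15:10902931-10902960 and the second on the minus strand at chr15:10914852-10914881.
Amacr left match: gcggtggggCCTTTAGGAGGCtggccttgc
Amacr right match: ttaaagcacCCCATAGGTGGCttcaatatg
A match of these letters is a description of the sequence and not a measured CTCF site, and its absence from the Rai14 stretch says only that these letters do not occur there.

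The boundary beside Rai14 was shallow in untreated cells and was the deepest point of the whole region after cohesin degradation. Insulation is the log2 mean balanced contact in a square of 20 by 20 bins (128 kb) across a bin, minus its mean over the bins of the region. Fewer contacts across a bin give a lower score. Line 1A2 scored -0.08 ± 0.022 at the boundary bin, line 1F4 -0.15 ± 0.0197 and line 1B1 -0.13 ± 0.0218. The score of 1B1 -cohesin was -0.83 ± 0.0278. The 3 untreated libraries lay close together, and 151 to 168 of 416 bins scored lower in them. In 1B1 -cohesin none of the 416 bins scored lower. The reads in the square numbered 7101, 8611, 7149 and 4229 in that order. These values chose the stretch, so they describe it and support nothing further.

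The minimum kept its place. In all 4 libraries the boundary bin was the lowest bin within 10 bins on either side, and the score rose from it to the highest bin within 30 bins by 0.51 to 0.57 on the left and by 0.35 to 0.40 on the right in the untreated libraries, against 1.14 and 1.04 in 1B1 -cohesin. Just inside the stretch, the Rai14 start bin scored 0.02, -0.05 and -0.05 in 1A2, 1F4 and 1B1 and -0.53 in 1B1 -cohesin. Just outside it to the right, the bin at chr15:10656001-10662400 scored -0.03, -0.10, -0.08 and -0.81, close to the boundary bin itself. Just outside to the left, the bin from chr15:10630401 on scored 0.22, 0.16, 0.15 and -0.11. The squares of neighbouring bins share most of their pairs, so a run of low scores does not give the extent of a change. In such a run, 14 neighbouring bins (chr15:10636801-10726400) lay at least 0.3 below all 3 untreated libraries, among them all 3 bins of the Rai14 stretch. Over the region 12% of bins met this criterion, in 5 runs of neighbouring bins, and the Rai14 run was the longest. No bin of the Amacr stretch met it.

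**Figure D1:**
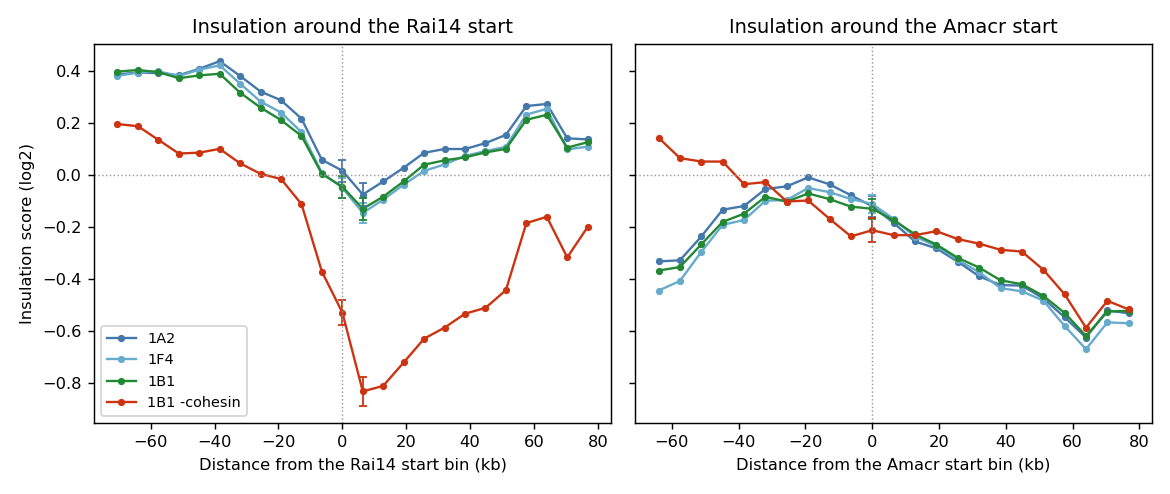
Insulation score (log2, relative to the mean of the region) against the distance in kb from the bin with the Rai14 start (left) and the Amacr start (right), 1 line per library. Bars on the start bins and on the boundary bin are 1.96 counting errors. The boundary bin, 6.4 kb to the right of the Rai14 start bin, falls from between -0.08 and -0.15 in the untreated libraries to -0.83 in 1B1 -cohesin, while the Amacr start bin moves from between -0.11 and -0.13 to -0.21.

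The deepening was present at every square size tried. With squares of 32, 64, 192 and 256 kb the 1B1 -cohesin score lay 0.53, 0.57, 0.74 and 0.62 below that of 1B1. The untreated scores depended on the size, from -0.41 to -0.47 with 32 kb to 0.29 to 0.34 with 256 kb. In untreated cells its score thus lay above the mean of the region at 192 and 256 kb. In 1B1 -cohesin all sizes gave a score below 0, from -1.02 with 64 kb to -0.34 with 256 kb. Of the 10 boundaries found in the mean of 1A2 and 1F4, 8 scored higher in 1B1 -cohesin than in 1B1 and 2 scored lower. The 2 were the one beside Rai14 and one at chr15:12851201-12857600, whose difference was -0.15. Among the 8, those at chr15:10969601-10976000 and chr15:12044801-12051200 scored higher by only 0.0314 and 0.0345. The nearest boundary to the right of Rai14, in the gene-free stretch at chr15:10828801-10835200, moved the opposite way, from -0.52 in 1B1 to 0.06 in 1B1 -cohesin. This opposite movement is a description of the same pair of libraries.

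The untreated lines were also compared with each other. Only 1F4 against 1A2 is independent of the choice, since 1B1 is part of the contrast that chose the stretch. The boundary bin differed by -0.07 ± 0.0296 between 1F4 and 1A2, by -0.05 ± 0.031 between 1B1 and 1A2, and by 0.02 ± 0.0294 between 1B1 and 1F4. The SD of the same differences over all 416 bins was 0.0479 to 0.0657, and 33, 59 and 225 of the 416 bins had a lower difference, so 1F4 against 1A2 lay towards the low end of the bins and the other differences within their spread. The LacO array lies 851.2 kb from the Rai14 start. Set against 1A2 and 1F4, the treated library scored lower by 0.76 and 0.69, but these contrasts share the treated library with the one that chose the stretch.

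Inside the square of 128 kb, contacts across the boundary were lower in 1B1 -cohesin in each range of separation, and the ratio to 1B1 was lowest in the longest range. Relative to the expected value, the mean balanced signal at the same separation in the region, pairs in the square across the boundary stood at 0.716, 0.706, 0.738 and 0.505 (1A2, 1F4, 1B1 and 1B1 -cohesin) for separations of 6.4 to 32 kb. For separations of 134.4 to 249.6 kb they stood at 1.15, 1.14, 1.07 and 0.605, with 2855, 3524, 2881 and 1239 reads. The longest pairs within the square thus went from above the regional mean to below it.

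The same was seen in the blocks on either side. The left block runs from Dnajc21 to Rai14 (chr15:10400001-10649600) and the right block from the boundary to the Amacr stretch (chr15:10656001-10899200), and both were drawn after the profiles had been seen. Between the blocks, observed over expected was 1.27 ± 0.0117, 1.25 ± 0.0105 and 1.22 ± 0.011 in 1A2, 1F4 and 1B1 and 0.768 ± 0.01 in 1B1 -cohesin, in which the reads joining the blocks fell from 19379 in 1B1 to 9458. Within the left block it was 1.25, 1.25, 1.27 and 1.18. Within the right block it was 0.917, 0.902 and 0.927 in the untreated libraries and 1.06 ± 0.0144 in 1B1 -cohesin. Contact between the blocks was therefore at or above that within the right block in untreated cells and below that within either block after degradation.

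**Figure D2:**
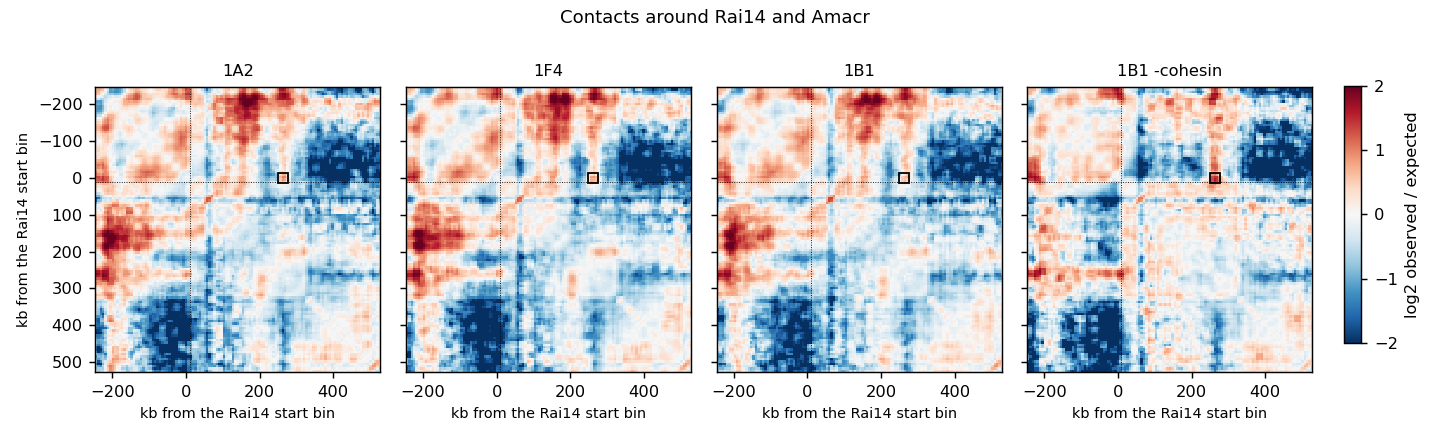
Maps of log2 observed over expected contact (colour, smoothed over 3 by 3 bins) in the 4 libraries, both axes in kb from the Rai14 start bin. Dotted lines mark the right edge of the boundary bin and the open square the Rai14-Amacr contact. To the right of the boundary, contacts with the left block that are red around 150 kb in the untreated maps are pale or blue in 1B1 -cohesin, whereas the column at the Amacr start stays red.

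Rai14 contacted its left side, which holds its own gene body and the genes beyond it, more than its right side in every library, and the difference widened after degradation. The left-right balance is the log2 ratio of the signal of partners 32 to 256 kb to the right to that of partners at the same distance to the left. It was -0.76 ± 0.0455, -0.79 ± 0.0396 and -0.76 ± 0.0449 in the order 1A2, 1F4 and 1B1. It was -1.52 ± 0.0571 in 1B1 -cohesin. The untreated libraries differed from each other by at most 0.03, which is within their counting error. Among 374 stretches of 3 bins, 45 to 55 had a lower balance in the untreated libraries and 3 in 1B1 -cohesin. The fall from 1B1 was 0.76 ± 0.0726, and 33 of the 374 stretches fell further. The balance uses contacts across the boundary in the contrast that chose the stretch, so nothing is read from this rank.

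The largest changes lay on the right side. Partners 70.4 to 128 kb to the right stood at 1.25 ± 0.0638, 1.21 ± 0.0542 and 1.22 ± 0.0634 in 1A2, 1F4 and 1B1 and at 0.536 ± 0.045 in 1B1 -cohesin. Partners 32 to 64 kb to the right went from 0.788, 0.777 and 0.759 to 0.511, and those 134.4 to 256 kb away from 1.03, 1.04 and 1.05 to 0.706. On the left, partners 32 to 64 kb away stood at 1.60, 1.57, 1.55 and 1.71, those 70.4 to 128 kb away at 1.94, 1.91, 1.85 and 1.54, and those 134.4 to 256 kb away at 1.63, 1.72, 1.73 and 1.69, so only the middle band on the left was lower than in the untreated libraries. Farther to the right, at 262.4 to 499.2 kb, the order was turned, with 0.506, 0.433 and 0.507 in the untreated libraries and 0.645 ± 0.0333 in 1B1 -cohesin. This order holds for observed over expected only. The reads in this band, 500, 534, 525 and 458, were fewest in 1B1 -cohesin. In the untreated libraries the right side carried peaks of contact in the stretch between 4930556M19Rik and C1qtnf3, which has no protein-coding gene. At 160 kb the window of 3 by 3 bins stood at 1.55, 1.61 and 1.77 with 197, 265 and 242 reads, and in 1B1 -cohesin at 0.769 with 71 reads. At 224 kb, short of C1qtnf3, contact was low in all 4 libraries (0.445, 0.415, 0.406 and 0.503).

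Counted in windows, Rai14 had 172 partner windows at least 64 kb away with at least 20 reads per library on average. In 1B1 -cohesin 22 of them (12.8%) were at least 2-fold lower than in 1B1 and 12 (6.98%) at least 2-fold higher, while over all windows of the region with as many reads 4.02% were lower and 3.7% higher. These counts come from the contrast that chose the stretch and nothing is read from them. Neighbouring windows overlap. Of the 22 lower windows, 16 lay among the 18 window positions from 64 to 172.8 kb to the right of the start (chr15:10707201-10822400), which holds the end of 4930556M19Rik and gene-free sequence. The windows at 83.2 and 128 kb fell just short of 2-fold. This whole span stood at 1.15 ± 0.0436, 1.11 ± 0.037 and 1.13 ± 0.0427 in 1A2, 1F4 and 1B1, with 1179, 1477 and 1204 reads, and at 0.488 ± 0.0303 in 1B1 -cohesin, with 435 reads. The untreated values differ by less than their counting error allows, and the treated value lies below all of them. The 12 higher windows lay 742.4 to 1792 kb away and had few reads. None of them remained when at least 50 reads were asked for, whereas 16 lower windows did. Without division by the expected value, 45 windows (26.2%) were lower and 12 (6.98%) higher, against 20.1% and 0.519% of all windows of the region.

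By the rule for naming single windows (at least 50 reads on average, and at least 5 bins between named windows, so that windows next to a named one are passed over), the largest falls were at 134.4 kb, 64 kb and 166.4 kb to the right. At 134.4 kb (chr15:10777601-10784000, no gene) observed over expected was 1.19, 1.15, 1.18 and 0.432 with 109, 143, 121 and 32 reads, and the log2 ratio of 1B1 -cohesin to 1B1 was -1.45 ± 0.371. At 64 kb, inside 4930556M19Rik, it was 0.554, 0.563, 0.603 and 0.224 with a log2 ratio of -1.43 ± 0.418. At 166.4 kb it was 1.22, 1.07, 1.33 and 0.523 with a log2 ratio of -1.34 ± 0.302. The largest rise of Rai14 was its window with the Amacr start. The next were at 313.6 kb to the right in Slc45a2, a transporter of pigment cells, with 0.624, 0.49, 0.489 and 0.865, and at 268.8 kb to the left in Dnajc21, a co-chaperone, with 1.06, 1.24, 1.12 and 1.5.

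**Figure D3:**
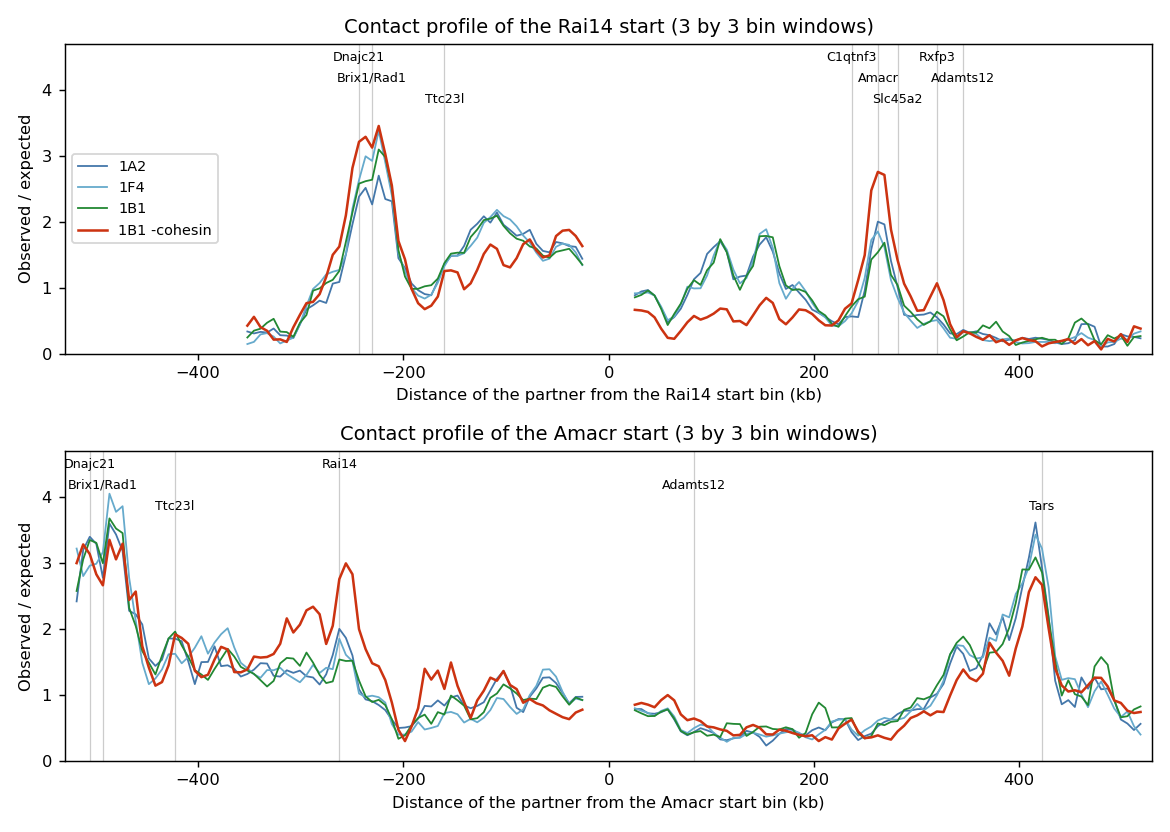
Observed over expected contact in windows of 3 by 3 bins against the distance in kb from the Rai14 start bin (top) and the Amacr start bin (bottom), 1 line per library, with the start bins of protein-coding genes at least 64 kb away marked by grey lines. Between 64 and 172.8 kb to the right of Rai14 the red line of 1B1 -cohesin runs below the others, and at Amacr (262.4 kb) it runs above them. The Amacr profile has peaks near Rad1 and near Tars in all 4 libraries.

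The Rai14 start and the Amacr start contacted each other more than their surroundings in all 4 libraries, 1B1 -cohesin included. The window of 3 by 3 bins, 262.4 kb apart, held 182 (1A2), 203 (1F4) and 149 (1B1) reads in the untreated libraries and 175 reads in 1B1 -cohesin. Observed over expected was 2.00 ± 0.157, 1.85 ± 0.136, 1.54 ± 0.132 and 2.76 ± 0.219. Against the ring of bin pairs around it (between 5 by 5 and 11 by 11 bins) the window stood at 2.60 ± 0.204, 2.52 ± 0.185, 1.78 ± 0.153 and 2.14 ± 0.17. 1B1 -cohesin was the highest of the 4 against the regional mean and within the range of the untreated libraries against the ring. Of the 406 other windows at this separation, 22, 29 and 78 were higher in 1A2, 1F4 and 1B1, and none in 1B1 -cohesin.

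The rise against the expected value came with a fall of the expected value itself. The mean balanced signal of the window was 91.7, 78.7, 71.9 and 81.2, so 1B1 -cohesin lay within the range of the untreated libraries. The expected value at this separation was 45.7, 42.4 and 46 in the untreated libraries and 28.1 in 1B1 -cohesin. Relative to the expected value the contact was 1.79-fold higher in 1B1 -cohesin than in 1B1 (log2 ratio 0.84 ± 0.169, 95% counting interval 0.512 to 1.17), and 24 of 406 windows at this separation rose further. Without the division the log2 ratio was 0.18, and against the ring it was 0.27. Set against 1A2 and 1F4 the log2 ratio was 0.46 ± 0.161 and 0.57 ± 0.156. The undivided signal gave -0.17 against 1A2 and 0.04 against 1F4, and the ratio to the ring was lower in 1B1 -cohesin than in 1A2 and 1F4. Whether the contact was higher after degradation thus depended on the measure and on the reference line.

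Among the untreated lines, the log2 ratio of 1B1 to 1A2 at the window was -0.38 ± 0.168, with a 95% counting interval of -0.709 to -0.0524. The SD of this log2 ratio over the 406 windows was 0.363, and 31 of them fell further, so the difference was about as large as the spread between windows. 1B1 and 1F4 differed by -0.27 ± 0.163 and 1F4 and 1A2 by -0.11 ± 0.155, and both intervals include 0.

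**Figure D4:**
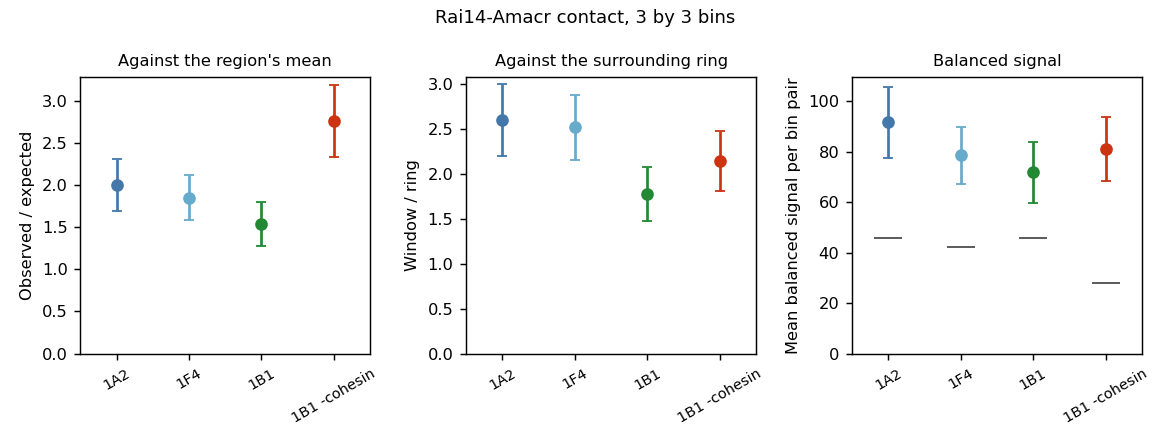
The Rai14-Amacr contact in the 4 libraries (window of 3 by 3 bins) as observed over expected (left), as the ratio to the surrounding ring (middle) and as the mean balanced signal per bin pair (right). Points are values of 1 library, bars are 1.96 counting errors, and the grey dashes at the right show the expected signal at that separation. The signal in 1B1 -cohesin (81.2) lies between those of 1B1 (71.9) and 1A2 (91.7), while the expected value falls to 28.1.

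Within the window the Amacr start bin had the highest observed over expected of its stretch in every library. Summed over the Rai14 stretch, the Amacr start bin held 71, 88, 77 and 78 reads (observed over expected 2.42, 2.45, 2.43 and 3.81). The bin to its left held 42, 46, 23 and 29 reads and the bin to its right 69, 69, 49 and 68. Of the Rai14 stretch, the boundary bin had the highest observed over expected with the Amacr stretch in every library, 2.43, 2.27, 1.86 and 4.12, from 54, 64, 46 and 68 reads. The Rai14 start bin stood at 1.79, 1.49, 1.13 and 2.39 from 70, 68, 45 and 64 reads, so by reads the bins were close and their order differed between libraries. The lower value of the whole window in 1B1 came with lower values in the flanking bins of the Amacr stretch (1.06 and 1.13) and not in the Amacr start bin. Seen from Rai14, contact dropped on either side of the Amacr start. At 38.4 kb to its left it was 0.445, 0.415, 0.406 and 0.503, and at 38.4 kb to its right 0.586, 0.389, 0.519 and 0.650.

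Seen from Amacr, observed over expected was also higher in 1B1 -cohesin on both sides of the Rai14 start, while the reads there were similar to those of 1B1. At 19.2 and 38.4 kb to the left of the Rai14 start, inside the Rai14 gene, Amacr stood at 1.16 and 1.37 in 1A2, 1.33 and 1.19 in 1F4, 1.3 and 1.44 in 1B1, and 2.23 and 2.07 in 1B1 -cohesin. At 19.2 kb to the right of the Rai14 start it went from 1.08, 1.02 and 1.22 to 2.00. At 57.6 kb to the right, within 4930556M19Rik, it was low in all libraries (0.498, 0.396, 0.334 and 0.471). By the same rule with its spacing of 5 bins, 2 of the 3 rises named for Amacr were with the boundary bin (1.87, 1.61, 1.52 and 3.00, log2 ratio to 1B1 0.98 ± 0.183) and with the Rai14 gene body at 288 kb (1.27, 1.46, 1.49 and 2.34). The other was with Npr3 at 921.6 kb (3.57, 2.84, 1.89 and 4), where 1B1 was the lowest library. The 3 falls named for Amacr by this rule lay to its right, over Adamts12 and the sequence between it and Tars, which has no protein-coding gene. At 326.4 kb it stood at 1.17, 1.22, 1.3 and 0.74, at 390.4 kb at 1.83, 2.18, 2.02 and 1.29, and at 268.8 kb at 0.589, 0.652, 0.541 and 0.349, the last with 26 to 69 reads.

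The Amacr start was no boundary. Its insulation score was -0.12 ± 0.0201, -0.11 ± 0.0182, -0.13 ± 0.02 and -0.21 ± 0.0231, and in none of the libraries was its bin the lowest within 10 bins. The score of 1B1 -cohesin was lower than that of 1B1 by 0.08 ± 0.0305, which is small beside the SD of 0.284 over the 416 bins. The sign of this difference depended on the square, with -0.33 at 64 kb and 0.11 at 192 kb, and the mean observed over expected in the square gave 0.03. The left-right balance of Amacr was -0.91 ± 0.0642, -0.72 ± 0.0564, -0.71 ± 0.0619 and -0.57 ± 0.0638. 1B1 -cohesin and 1B1 differed by 0.14 ± 0.0889, which is within the 95% counting interval. The difference was 0.53 with partners up to 20 bins away, and against 1A2 it was 0.33 ± 0.0905, which is beyond that interval. Between untreated lines the balance of 1A2 was the lowest, and 1F4 and 1B1 lay above it by 0.18 ± 0.0855 and 0.19 ± 0.0892. Of the 374 stretches, 15 and 17 differed by more in this direction. The whole-profile counts of Amacr were close to the background. Of its 241 partner windows, 7 were at least 2-fold lower and 7 at least 2-fold higher in 1B1 -cohesin than in 1B1 (2.9% each), against 4.02% and 3.7% over the region. Without division by the expected value, 39 (16.2%) were lower and 1 (0.415%) higher, against 20.1% and 0.519% over the region.

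Bands of distance showed changes in both directions around Amacr. Partners 134.4 to 256 kb to the left, which run from the boundary bin over 4930556M19Rik into gene-free sequence, went from 0.878 ± 0.0504, 0.733 ± 0.0377 and 0.812 ± 0.0455 to 1.25 ± 0.0696. Their reads were 490, 549, 502 and 550, while those of the region went from 1222239 in 1B1 to 1375312 in 1B1 -cohesin. The rise is therefore stated for observed over expected only. Partners 32 to 64 kb to the left, in gene-free sequence next to C1qtnf3, went from 1.04, 1.08 and 0.980 to 0.7 ± 0.0333. Partners 32 to 64 kb to the right, over Slc45a2 and Rxfp3, the receptor of relaxin-3, went from 0.742, 0.755 and 0.721 to 0.915 ± 0.0337. Partners 262.4 to 499.2 kb to the right, over the end of Adamts12, a secreted metalloprotease, and Tars, went from 1.38, 1.44 and 1.42 to 1.16 ± 0.0496. Farther to the right, partners 505.6 to 998.4 kb away went from 1.21, 1.19 and 0.995 to 1.35 ± 0.0642. Their reads, 723, 858, 700 and 658, were fewest in 1B1 -cohesin, so this rise holds for observed over expected only. Partners 1005 to 1997 kb away went from 1.68, 1.57 and 1.5 to 1.13 ± 0.0508. Between Rai14 and Amacr, observed over expected was thus lower with Rai14 at all 3 bands after degradation. With Amacr it was lower at the nearest band and higher at the farthest.

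Beyond each other, both starts contacted sites near the starts of further genes. By the criteria for focal partners (a window at least 1.5 times its ring with at least 50 reads in each untreated library, at a local maximum), each start had 3. The same count was not made for other stretches, so nothing is read from its size. Both starts had each other and a window inside Rad1, whose product is part of the DNA damage checkpoint clamp. Its start shares a bin with that of Brix1, a ribosome assembly factor. Rai14 with Rad1 (224 kb to the left, chr15:10419201-10425600) stood at 2.70, 3.38, 3.10 and 3.46 with 363, 590, 452 and 357 reads, and at 1.82, 2.31, 1.98 and 2.04 times its ring. Amacr with Rad1 (486.4 kb) stood at 3.60, 4.06, 3.68 and 3.35, and at 1.89, 2.19, 1.95 and 1.97 times its ring. Neither ratio to the ring lay outside the untreated range in 1B1 -cohesin.

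The third focal partner of Rai14 was in Tars, which encodes threonyl-tRNA synthetase (678.4 kb, chr15:11321601-11328000), with 2.07, 2.19, 2.12 and 1.79. Its ratio to the ring was 2.10, 2.13, 1.93 and 1.57 ± 0.218 with 87, 103, 104 and 60 reads. The third of Amacr was at Npr3, the clearance receptor of natriuretic peptides (928 kb, chr15:11833601-11840000), with 3.91, 3.60, 2.70 and 3.4 and ratios to the ring of 1.65, 1.58, 1.53 and 2.03. In 1B1 -cohesin the ratio to the ring was below the untreated range at Tars and above it at Npr3, by less than 1.96 counting errors of that library in either case against the nearest untreated value. The number of focal partners moved with the criteria, from 0 with a ratio of 2 to 6 for Rai14 and 5 for Amacr with a ratio of 1.3.

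Rai14 could be measured against the starts of 20 other protein-coding genes in 18 bins at least 64 kb away. The median observed over expected was 1.69, 1.58, 1.55 and 1.67 in 1A2, 1F4, 1B1 and 1B1 -cohesin, against 0.887, 0.864, 0.939 and 0.961 over all 434 partner windows. The highest was Mtmr12, a catalytically inactive relative of the myotubularin phosphatases (1491 kb), with 3.55, 3.72, 2.78 and 3.61 from 40, 47, 38 and 56 reads. Among the lowest was Adamts12 (345.6 kb), with 0.359, 0.333, 0.259 and 0.338 from 20 to 32 reads. In 1B1 -cohesin, Rai14 stood above all 3 untreated libraries at 10 of the 18 bins, within their range at 7 and below it at 1, whereas over the windows of the region with at least 20 reads on average 40.3% lay above and 33.1% below. The gene starts carry no such read minimum, and 2 of the 10 bins above, those of Gm2606 and Golph3, held 2 to 9 and 11 to 22 reads. These ranks are of observed over expected, and those by reads differed. At Dnajc21 (237, 321, 271 and 253 reads), Brix1 and Rad1, Amacr and Slc45a2, the reads of 1B1 -cohesin lay within the untreated range. They were lowest at C1qtnf3 (73, 94, 99 and 68) and highest at Rxfp3 (72, 80, 81 and 89), Npr3, Zfr, Golph3 and Gm2606. These reads were not corrected for depth, so their order is not one of contact. The region held 1225535 (1A2), 1558596 (1F4), 1222239 (1B1) and 1375312 (1B1 -cohesin) reads. The bin below was that of Ttc23l, with 1.36, 1.33, 1.37 and 1.25 ± 0.125. Dnajc21 stood at 2.38, 2.63, 2.58 and 3.22 ± 0.216 and the shared bin of Brix1 and Rad1 at 2.26, 2.93, 2.64 and 3.13 ± 0.176. Near Amacr, Slc45a2 stood at 1.01, 0.847, 1.04 and 1.42 ± 0.178, Rxfp3 at 0.549, 0.508, 0.634 and 1.07 ± 0.121, and C1qtnf3 at 0.564, 0.611, 0.717 and 0.762 ± 0.0954. Tars stood at 1.60, 1.69, 1.5 and 1.59 ± 0.236. Of the gene starts to the right of Rai14, none stood below all untreated libraries in observed over expected.

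Amacr was measured against 17 gene starts in 15 bins, with medians of 2.00, 1.85, 1.96 and 1.92 against 1.16, 1.16, 1.10 and 1.10 over its 434 partner windows. In 1B1 -cohesin it stood above the untreated libraries at 3 of the 15 bins, below them at 6 and within their range at 6. The bins above were those of Rai14, Adamts12 (83.2 kb, 0.436, 0.496, 0.433 and 0.642 ± 0.0626) and Gm2606, which had at most 8 reads. The bins below were those of Brix1 and Rad1 (2.78, 3.17, 3.00 and 2.66 ± 0.262), Tars (2.93, 3.22, 2.86 and 2.67 ± 0.275), the transcription coactivator gene Sub1 (3.64, 2.54, 2.56 and 1.85 ± 0.36), the RNA-binding protein gene Zfr (2.14, 2.58, 3.13 and 1.96 ± 0.469), Mtmr12 (3.03, 2.07, 1.91 and 1.34 ± 0.37) and the shared bin of Drosha and 6030458C11Rik. For each of these 6 the interval of the treated library overlapped that of 1B1. Dnajc21 (505.6 kb) stood at 3.4, 2.96, 3.35 and 3.14 and Ttc23l at 1.85, 1.62, 1.96 and 1.92.

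**Figure D5:**
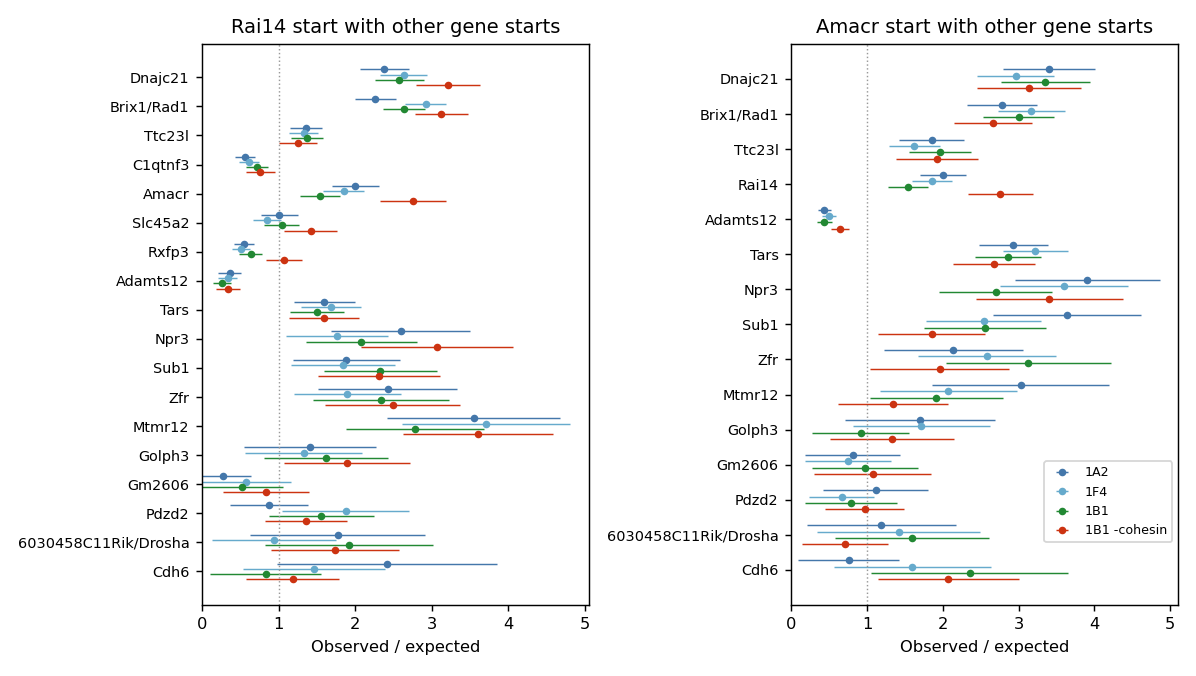
Observed over expected contact of the Rai14 start (left) and the Amacr start (right) with the start bins of other protein-coding genes at least 64 kb away, in genomic order from top to bottom. Points are the 4 libraries and bars 1.96 counting errors, which widen with distance as reads become few. The bar of 1B1 -cohesin is apart from those of all 3 untreated libraries for Rai14 with Amacr and for Rai14 with Rxfp3, and the dotted line marks the regional mean of 1.

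Partners on the right of Rai14 were also split by whether protein-coding genes cover at least 50% of the bin, a split made after the values had been seen. Between 64 and 500 kb, Rai14 with the 33 bins of low gene cover went from 1.03 ± 0.0349, 1.02 ± 0.03 and 1.03 ± 0.0343 to 0.543 ± 0.027. With the 36 bins of high gene cover it went from 0.579 ± 0.0281, 0.521 ± 0.0245 and 0.572 ± 0.0273 to 0.746 ± 0.0391. The reads with these bins, 509, 552, 536 and 451, were fewest in 1B1 -cohesin, so this rise holds for observed over expected only. The order of the classes was therefore turned after degradation. The bins of low gene cover lie nearer to Rai14 than the others, so gene cover and distance cannot be told apart here. From 500 kb to 2 Mb to the right of Rai14, observed over expected rose in both classes between 1B1 and 1B1 -cohesin. It went from 0.906 to 1.05 ± 0.04 with 118 bins of high cover and from 0.885 to 1.16 ± 0.0535 with 116 bins of low cover. The reads went from 745 to 818 and from 761 to 788, while those of the region went from 1222239 to 1375312.

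The share of the Rai14 signal that lay over 500 kb away was 16.7% ± 0.443, 15.1% ± 0.383, 17.6% ± 0.425 and 25.4% ± 0.578, counting partners at least 32 kb away. That of Amacr was 28.7% ± 0.647, 27.0% ± 0.562, 28.0% ± 0.607 and 29.6% ± 0.687. The share of Rai14 was higher in 1B1 -cohesin than in 1B1 by 7.82 ± 0.717 percentage points and that of Amacr by 1.62 ± 0.917, the latter within its 95% counting interval. When partners from 2 bins away entered, the differences were 3.85 for Rai14 and -1.08 for Amacr, and with far meaning over 250 kb that of Amacr was -5.63, so the direction for Amacr depended on these limits.

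The arrays and the boundaries of their domain were far partners with few reads. With the TetO bin, Rai14 (998.4 kb) stood at 1.22 ± 0.345, 1.49 ± 0.355 and 0.94 ± 0.267 in the untreated libraries, from 16, 23 and 15 reads, and at 3.31 ± 0.596 from 38 reads in 1B1 -cohesin. With the LacO bin (851.2 kb) it stood at 0.433, 0.503, 0.603 and 0.864 from 11 to 18 reads. Amacr with the TetO bin stood at 2.44 ± 0.433, 2.60 ± 0.394, 1.35 ± 0.264 and 2.10 ± 0.362, and with the LacO bin at 0.673, 1.25, 1.03 and 1.26. Amacr with the right boundary of the array domain (chr15:11891201-11897600, 985.6 kb) stood at 3.99 ± 0.522 in 1A2 and 4.57 ± 0.562 in 1F4, without 3xCTCF sites, and at 2.35 ± 0.388 in 1B1 and 2.49 ± 0.463 in 1B1 -cohesin, which hold them. These values come from 63, 73, 43 and 32 reads. With the left boundary (chr15:11334401-11340800) Amacr stood at 2.19, 2.64, 2.16 and 2.02. Rai14 with the left boundary stood at 1.21, 1.36, 1.02 and 1.56 and with the right boundary at 1.54, 1.34, 1.60 and 2.16 ± 0.389.

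Between untreated lines the profiles of both starts differed by a small number of windows. Windows at least 2-fold lower or higher numbered 4 of 172 for Rai14 and 8 of 241 for Amacr between 1F4 and 1A2, against 1.39% of all windows, 2 and 4 between 1B1 and 1A2, against 1.47%, and 9 and 8 between 1B1 and 1F4, against 1.5%. As shares of the windows of a start these came to 2.33%, 1.16% and 5.23% for Rai14 and 3.32%, 1.66% and 3.32% for Amacr, above the share of the region except between 1B1 and 1A2 for Rai14. Neighbouring windows overlap, so these are not separate sites. The median absolute log2 difference between untreated lines was 0.175 to 0.205 for Rai14 and 0.201 to 0.248 for Amacr, against 0.2 to 0.212 over the region. Between 1B1 -cohesin and 1B1 it was 0.457 for Rai14 and 0.333 for Amacr, against 0.362 over the region.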

How the data were processed

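The authors mapped read pairs to mm9 with HiC-Pro (version 2.11.4 in the submitters' processing notes), kept unique valid pairs within the captured regions, binned them at 6.4 kb and balanced them by iterative correction (ICE). The deposited values are thus a balanced contact signal per bin pair, which sums to the same total in every library, so depth does not show in it. Reads were recovered by solving for 1 factor per bin, with every value then lying less than 0.05 from a whole number. Depth was 3214144 (1A2), 4089968 (1F4), 3234581 (1B1) and 3622612 (1B1 -cohesin) reads, and the precision of a value follows from its reads. Without molecular identifiers, errors cover counting only. Bins, expected values, windows and insulation were computed in Python 3.11.15 with NumPy 2.4.6 and tested on simulated data. Gene starts are from GENCODE vM1 on NCBIM37, whose chromosome 15 has the length given in the bin table. The planned RefSeq starts belong to another build and were used for no position. Sequences are from NCBIM37. Groups follow the sample labels, and with 1 library per group no test across replicates was made. Members and lists were chosen with earlier results of these data known. Named partners were the other start, gene starts, arrays, domain boundaries, focal partners and the 3 largest rises and falls with at least 50 reads and at least 5 bins apart. Other named sites, the blocks and the split by gene cover were chosen after their values were seen. Alternatives covered the square, the window, the expected value, the balancing, the distance limits, the read minimum and the reference library.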

Additional observations from a re-analysis of the deposited data

Results flagged for a closer look

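A signal outside the contacts described above is the number of reads that join a stretch to a captured region on another chromosome. For the Amacr stretch these made up 0.165% of its reads in 1B1 -cohesin (19 of 11518, exact binomial 95% interval 0.0993% to 0.257%), above the untreated lines. These had 0.133% (1A2, from 15 reads), 0.0347% (1F4, from 5) and 0.0256% (1B1, from 3). The interval of 1A2 (0.0747% to 0.22%) overlaps that of 1B1 -cohesin and those of 1F4 (0.0113% to 0.081%) and 1B1 (0.00528% to 0.0748%) do not. Over the whole chromosome 15 region the share was 0.178% in 1B1 -cohesin and 0.101% to 0.145% in the untreated libraries, and for the Rai14 stretch it was 0.115% and 0.0537% to 0.137%.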

How the results depend on the processing

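Over 60 recomputed values of 11 results, 30 stayed within the 95% counting interval of the reported value (for counts, within 1.5 times), 28 moved further and 2 changed sign where the reported value differed from 0 by more than its counting interval. The deepening at the Rai14 boundary (-0.70) kept its sign in all, and moved to -0.57 with squares of 10 by 10 bins, -0.58 with recovered reads and -0.52 as the mean over the stretch. The Amacr insulation change (-0.08) turned to 0.11 with 30 by 30 bins and to 0.0297 with observed over expected, and moved to -0.33 with 10 by 10 bins and -0.21 with recovered reads. The Rai14-Amacr log2 ratio (0.84) moved to 0.18 without division by the expected value, 0.27 against the ring and 0.46 with 1A2 as the reference. The Rai14 balance change (-0.76) moved to -0.59 with partners up to 50 bins away, and that of Amacr (0.14) to 0.53 with up to 20 bins and 0.33 against 1A2. The change in far share of Rai14 (7.82 percentage points) moved to 3.85 when partners from 2 bins away entered, 6.20 with recovered reads and 10.3 against 1F4, and that of Amacr (1.62, whose interval includes 0) changed sign, to -5.63 with far meaning over 250 kb and -1.08 with partners from 2 bins. Focal partners (3 each) numbered 6 for Rai14 and 5 for Amacr at a ratio of 1.3, 0 for both at 2, and 5 for both with at least 20 reads. Changed windows of Rai14 (34) numbered 64 at 1.5-fold, 16 with at least 50 reads and 57 without division by the expected value, and those of Amacr (14) 60, 1 and 40. Over the region these settings gave 13.4% lower and 15% higher, 2.84% and 1.54%, and 20.1% and 0.519%. Where recovered reads, the square or the window move a value, the cause was not tested. Contacts over 1 Mb rest on few reads, where counting error is wide. No paired analysis was possible because each group has 1 library.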
